A study of Homo sapiens with 20 samples.

Results

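The response to heregulin (HRG) was described in cells depleted of ERRα, the orphan nuclear receptor encoded by ESRRA. The 2 arrays of HRG-treated siERRα cells were set against the 2 arrays of starved siERRα cells, over every gene detected (detection p under 0.01) on both arrays of either group. This left 8597 genes, of 9592 measured in the whole series of 20 arrays. All RNA came from SKBr3, a human breast cancer cell line with amplified ERBB2. Cells of both groups had been transfected with an siRNA pool against ERRα 60 h before collection and were deprived of serum. One group then received HRG at a labelled dose of 100 µM and the other PBS as the vehicle. Parallel groups of 2 arrays each carried a control siRNA (siC) and were HRG-treated or starved. The sample titles call the HRG-treated siERRα cells starved but leave that word out for the HRG-treated siC cells. The labels gave 24 h for the growth factor, whereas the study's methods for RNA gave a shorter exposure, and which of them applies to these arrays was not settled from the sources used here. The labels also differed on the length of serum starvation. Nothing in them said whether the 2 replicates of a group were separate cultures, so p-values reflect only how far these samples differ, and part or all of that spread may be technical. A single cell line and 1 siRNA pool limit what the groups can stand for.

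HRG binds ERBB3 and ERBB4, and ERBB3, which has little kinase activity of its own, signals by pairing with ERBB2. The pair activates the RAS–MAPK cascade, which switches on immediate early transcription factors and then the phosphatases and adaptors that shut the cascade down, and the PI3K–AKT cascade, which keeps FOXO transcription factors out of the nucleus. ERRα binds DNA without a known natural ligand and drives genes of mitochondrial respiration and fuel oxidation.

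The target of the siRNA was examined first. ESRRA had log2 normalized intensities of 7.73 and 7.59 in HRG-treated siERRα cells and 7.29 and 8.18 in starved siERRα cells, against 8.52 and 8.79 in HRG-treated siC cells and 8.71 and 9.04 in starved siC cells. All 4 siERRα arrays lay below all 4 siC arrays. The average difference was a log2 fold change of -1.07 ± 0.21 (SE; unadjusted p = 0.000229, adjusted p = 0.859 over all genes, where it was not called). HRG itself did not move ESRRA past the test in siERRα cells (log2 fold change -0.07 ± 0.30, adjusted p = 0.954), and the HRG and starved arrays overlapped. Only mRNA was measured here.

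The 4 arrays held 13300 to 13990 detected probes each, with median intensities of 124.4 to 139.5, and correlated with each other at 0.9575 or higher across genes. The lowest signal called detected lay between 5.70 and 5.85 on the log2 scale, so that values near or under that level are close to background. Among 10 luminal epithelial markers, 8 were detected on every one of the 4 arrays, with ERBB2 between 14.04 and 14.17 and KRT8, KRT19 and EPCAM also bright. CDH1 and TFAP2B were not detected on any, and the summed log2 level of the 10 was 104.4 to 104.8 on the HRG arrays and 105.7 to 106.1 on the starved arrays. Of the detected markers, GRB7 (9.50 and 9.98 with HRG against 10.77 and 11.06) and FOXA1 were lower on both HRG arrays. KRT8, KRT18 and ERBB2 were higher on both. None of the 5 leukocyte markers with a probe was detected on all 4 arrays, and their summed log2 level was 25.04 to 26.05 on the HRG arrays and 24.6 to 25.3 on the starved arrays. Single markers of 3 other cell types were detected throughout, VIM of 6 mesenchymal markers, ACTA2 of 3 basal markers with a probe and CDH5 of 4 endothelial markers. The summed levels were 31.8 to 31.9 on the HRG arrays and 31.2 to 31.4 on the starved arrays for the mesenchymal markers, with all but VIM undetected, and 17.6 to 18.9 against 16.9 to 18.8 for the basal markers, with KRT5 and KRT14 undetected. CDH5 was itself among the genes that rose, and with it the summed level of the 4 endothelial markers was 24.12 to 24.40 on the HRG arrays and 22.54 to 22.75 on the starved arrays, with PECAM1 and KDR not detected on any. The part of these markers in other results was not tested. In bulk RNA, fewer cells of a kind and less RNA per cell cannot be told apart. Replicate 1 of the EGF-treated siERRα cells, an array outside this comparison, correlated with the others at only 0.812 to 0.864. It enters the shared estimate of spread, whose median residual SD was 0.264 with it and 0.194 without it. Counts without that array are given beside those with it.

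HRG changed 279 genes in siERRα cells at an adjusted p under 0.05, 180 higher (2.09% of those tested) and 99 lower (1.15%). Without that EGF array, the same fold changes gave 872 calls, 506 higher (5.89%) and 366 lower (4.26%), and all 279 genes were among them. A further guide to scale is that 1406 genes had an unadjusted p under 0.05. The median fold change over all genes was -0.04, with 5% of genes below -0.69 and 5% above 0.78. Among the called genes, 129 rose and 62 fell by more than 1 log2 unit. Of the called genes, 24 higher ones were undetected on both starved arrays and 18 lower ones on both HRG arrays. These entered the test through 1 group alone, which set the direction of their change. The HRG arrays did not overlap the starved arrays for 4737 genes (55.1%), so an absence of overlap by itself was common. Leaving out HRG replicate 1 left 75 calls, HRG replicate 2 139 calls, starved replicate 1 104 calls and starved replicate 2 101 calls. The number of genes called in all 4 of these fits was 61. Just inside the detection rule, ACCS was 1 of 39 genes at a detection p of 0.00909, with log2 intensities of 5.57 and 5.08 in HRG-treated and 5.97 and 5.85 in starved cells. Just outside it, ACP4 was 1 of 162 genes at 0.0104, with 5.84 and 5.65 against 5.61 and 6.53.

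PHLDA1 was among the genes that rose most. It encodes a protein with a pleckstrin-homology-like domain that growth factors induce. Its log2 intensities were 8.79 and 9.83 with HRG against 5.01 and 5.21 in starved cells, where it was not detected, so that it was at least 11.6-fold higher (adjusted p = 0.000103). The tight-junction protein gene CLDN1 measured 10.69 and 9.59 against 7.17 and 5.23, the lower of which was not detected (log2 fold change 3.94 ± 0.64, adjusted p = 0.00403). Both HRG arrays of each gene stood above both starved arrays, although the starved replicates of CLDN1 were widely spaced. IL1RL1, a receptor of the interleukin-1 receptor family that binds IL-33, measured 8.50 and 7.60 against 4.67 and 4.52 and was at least 4.82-fold higher. A second detected probe of IL1RL1 gave a smaller log2 fold change of 1.76. CAVIN1, which builds caveolae, measured 9.59 and 9.09 against 6.31 and 6.20 (3.09 ± 0.32, adjusted p = 0.000141). DKK1, a secreted inhibitor of WNT signalling, measured 9.67 and 9.53 against 7.05 and 6.52 (2.82 ± 0.27, adjusted p = 0.000102). The replicates of CAVIN1 and DKK1 lay close together and the groups well apart. The size of the change in dim genes depended on the background correction. Without it the fitted log2 fold change was 2.44 for PHLDA1, 2.06 for CAVIN1 and 1.26 for LIF, and in the authors' normalized table it was 1.79, 1.57 and 0.81 for the same genes, so the bounds hold for the corrected values only.

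Other genes among the 15 largest rises were the deubiquitinase gene STAMBPL1 (8.85 and 7.89 with HRG against 5.84 and 5.29 in starved cells) and TMEM40, a transmembrane protein gene (8.55 and 8.16 against 5.74 and 5.44). KIAA1210 was at least 3.45-fold higher, and KRT16P2, a keratin pseudogene, at least 2.92-fold. The probe of KRT16P2 may also read its near-identical relatives, and KRT16 itself measured 6.91 and 6.53 against 5.09 and 4.84 and was at least 1.92-fold higher (adjusted p = 0.014, lost without starved replicate 1 or 2 or HRG replicate 1 at 0.0669 to 0.14). No array of one group overlapped the other in any of these genes, but that also held for 55.1% of all genes tested. The calls of CLDN1, CCL2, THBS1, STAMBPL1, ITGA2 and KRT16P2 ended without HRG replicate 1, at adjusted p-values of 0.0804 to 0.121, and without starved replicate 2, at 0.0571 to 0.0871. The other 9 of the 15 kept theirs without any one of the 4 arrays.

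**Figure D1:**
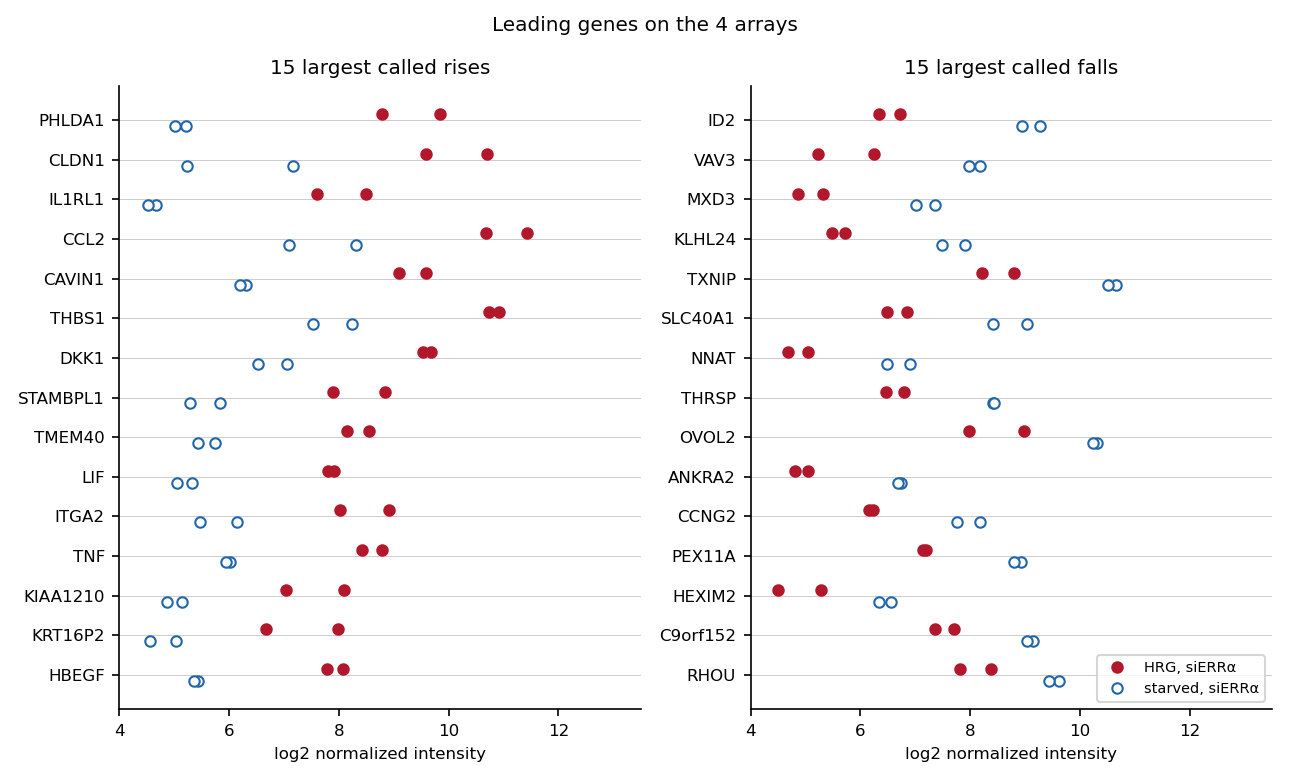
Log2 normalized intensity (horizontal axis) of the 15 genes with the largest called rises (left) and falls (right). Filled red points are the 2 HRG-treated siERRα arrays and open blue points the 2 starved siERRα arrays. The groups do not overlap in any row, as in 55.1% of all genes tested. The starved values of CLDN1, at 7.17 and 5.23, are the most widely spaced pair.

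Among receptors of the pathway, ERBB2 was near the top of the scale in all samples, with 14.17 and 14.13 in HRG-treated and 14.09 and 14.04 in starved siERRα cells (log2 fold change 0.09 ± 0.18, adjusted p = 0.892). EGFR measured 9.02 and 8.78 against 8.82 and 8.49 (0.25 ± 0.20, adjusted p = 0.619), with overlapping groups. ERBB3, the HRG receptor, had 9.20 and 9.63 against 10.27 and 10.28 (-0.86 ± 0.32, adjusted p = 0.181, and 0.0115 without the EGF array). GRB7, an adaptor encoded beside ERBB2, had 9.50 and 9.98 against 10.77 and 11.06 (-1.18 ± 0.35, adjusted p = 0.0932). ERBB3 and GRB7 were thus lower on both HRG arrays without passing the test in all 20 arrays. ERBB4 was among the genes not tested.

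ERRFI1, which encodes a feedback inhibitor of the EGFR and ERBB2 kinases, rose to 11.01 and 11.58 with HRG, against 9.01 and 9.22 in starved cells (2.18 ± 0.28, adjusted p = 0.000787). CBL, a ubiquitin ligase that removes active receptors, had 7.06 and 7.49 against 6.20 and 6.32 (1.01 ± 0.23, adjusted p = 0.0269). The CBL call ended without any one of the 4 arrays, at adjusted p-values of 0.066 to 0.19. In the list of 13 receptors and regulators, 10 were tested and these 2 were called higher, none lower (2 and 2 without the EGF array), with a median of 0.13. Of all genes tested, 2.09% were called higher and 1.15% lower, or 5.89% and 4.26% without the EGF array. The list counts here and below stand beside those shares. Of 9 ligands of the family only HBEGF, heparin-binding EGF, was tested. It measured 7.79 and 8.07 against 5.43 and 5.37, was not detected in starved cells and was at least 4.44-fold higher (adjusted p = 0.000102).

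A list of feedback regulators of the MAPK cascade, in which PHLDA1 and PHLDA2 were also placed, came next. Of 20 listed genes, 12 were tested, 4 were called higher and none lower, 8 higher without the EGF array, and the median was 1.20 against -0.04 over all genes. The called genes were DUSP5 and SPRED1, and also PHLDA1 and PHLDA2, which are not MAPK phosphatases or Sprouty relatives. DUSP5, a nuclear phosphatase of ERK, measured 9.39 and 9.23 with HRG against 7.50 and 7.32 in starved cells (1.90 ± 0.34, adjusted p = 0.00701). PHLDA2, a relative of PHLDA1 and an imprinted gene, measured 11.32 and 11.36 against 9.16 and 9.94 (1.79 ± 0.24, adjusted p = 0.00105). SPRED1, an inhibitor of RAF activation, measured 9.82 and 9.95 against 8.09 and 8.72 (1.48 ± 0.26, adjusted p = 0.00747). In these 3 genes the HRG replicates lay no farther apart than the starved ones. The groups did not overlap, as in 55.1% of all genes tested. The call of DUSP5 ended without HRG replicate 1 (0.0878) or starved replicate 2 (0.0684), and that of SPRED1 without HRG replicate 1 or 2 (0.0624 and 0.063) or starved replicate 1 (0.104). DUSP4 had a larger difference than DUSP5, 8.81 and 9.62 against 6.92 and 7.40, but an SE of 1.06 (adjusted p = 0.366, and 0.00944 without the EGF array). SPRY1 went the other way without a call (-0.31).

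All 17 tested members of the 24 AP-1 and immediate early factors had positive fold changes, 6 of them called, 11 without the EGF array, with a median of 1.14. Over all genes tested, 2.09% were called higher, or 5.89% without the EGF array. SRF, the serum response factor, was the most uniform, at 11.49 and 11.64 with HRG against 10.03 and 9.98 in starved cells (1.56 ± 0.16, adjusted p = 0.000111). JUN measured 9.90 and 9.49 against 8.27 and 7.75 (1.69 ± 0.27, adjusted p = 0.00385), and JUNB 7.04 and 7.55 against 5.79 and 5.79 (1.51 ± 0.27, adjusted p = 0.00684). Both encode subunits of AP-1, the factor that FOS and JUN proteins form. EGR1, a zinc-finger factor, measured 8.36 and 8.94 against 7.42 and 6.82 (1.53 ± 0.31, adjusted p = 0.015). IER5 (1.53) and BHLHE40, a helix-loop-helix repressor (1.61), were the other called members. For these 6 genes no HRG array overlapped a starved array, as for 55.1% of all genes tested. The calls of JUN, JUNB, EGR1, IER5 and BHLHE40 each ended without at least 1 of the arrays, at adjusted p-values of 0.0564 to 0.173, and that of SRF did not. FOSB (1.77 ± 0.62, adjusted p = 0.153) and MYC (0.32 ± 0.46, adjusted p = 0.833) were not called.

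Promoter sequence was read beside these calls, because several of the genes that moved together are known targets of SRF or AP-1. RefSeq promoters (GRCh38.p14, 250 bases before to 50 after the start) were matched for 140 of the 180 genes called higher, 80 of the 99 called lower and 7075 of the 8597 tested. The CArG box, the site SRF binds, occurred in 6 of the 140 promoters of genes called higher (4.29%), 1 of the 80 of genes called lower (1.25%), 1.07% of those tested and 1.29% of all 27305 in the table. The AP-1 site TGACTCA, on either strand, occurred in 7 (5%), 8 (10%), 3.1% and 4.92% of the same sets. The cyclic AMP element TGACGTCA occurred in 7 (5%), none, 3.62% and 1.98%, and the ETS site CCGGAAGT on either strand in 5 (3.57%), 9 (11.2%), 9.71% and 4.44%. The ERRα element TCAAGGTCA, on either strand, was found in no promoter of a called gene, in 0.141% of those tested and in 0.359% of all. These shares describe letters in a short window and were not tested. Shown are EGR1 (chr5:138465229-138465528, plus strand) and SRF (chr6:43171019-43171318, plus strand), which each hold a pair of CArG boxes, CXCL8 (chr4:73740319-73740618, plus strand) and ITGA5 (chr12:54419217-54419516, minus strand), called higher with an AP-1 site, and VAV3 (chr1:107688450-107688749, minus strand) and KLHL24 (chr3:183635373-183635672, plus strand), called lower with one. Each is written 5′ to 3′ along its gene, with the matched CArG box or AP-1 site in capitals, and no matches overlapped.
EGR1: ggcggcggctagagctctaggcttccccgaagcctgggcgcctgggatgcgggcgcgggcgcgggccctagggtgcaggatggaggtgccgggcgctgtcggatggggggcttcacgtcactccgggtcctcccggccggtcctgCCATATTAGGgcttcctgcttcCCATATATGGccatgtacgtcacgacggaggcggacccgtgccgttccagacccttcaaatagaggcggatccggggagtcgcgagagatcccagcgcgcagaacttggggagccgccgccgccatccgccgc
SRF: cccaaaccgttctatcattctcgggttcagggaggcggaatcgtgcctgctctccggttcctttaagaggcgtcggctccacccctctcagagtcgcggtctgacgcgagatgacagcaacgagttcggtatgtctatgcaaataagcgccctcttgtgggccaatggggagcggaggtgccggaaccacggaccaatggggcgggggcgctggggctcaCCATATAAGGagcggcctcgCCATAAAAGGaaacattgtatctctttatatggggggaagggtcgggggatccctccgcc
CXCL8: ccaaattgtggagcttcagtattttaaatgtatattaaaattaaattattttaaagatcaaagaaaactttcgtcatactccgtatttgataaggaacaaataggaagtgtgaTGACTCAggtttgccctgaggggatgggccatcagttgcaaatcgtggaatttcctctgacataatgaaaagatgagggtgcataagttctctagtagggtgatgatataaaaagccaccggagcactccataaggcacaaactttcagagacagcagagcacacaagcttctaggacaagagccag
ITGA5: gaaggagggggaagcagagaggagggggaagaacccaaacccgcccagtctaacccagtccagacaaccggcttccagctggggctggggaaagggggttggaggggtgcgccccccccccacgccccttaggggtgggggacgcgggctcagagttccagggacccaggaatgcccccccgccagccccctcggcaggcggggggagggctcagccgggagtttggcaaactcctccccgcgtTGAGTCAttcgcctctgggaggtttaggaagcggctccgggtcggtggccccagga
VAV3: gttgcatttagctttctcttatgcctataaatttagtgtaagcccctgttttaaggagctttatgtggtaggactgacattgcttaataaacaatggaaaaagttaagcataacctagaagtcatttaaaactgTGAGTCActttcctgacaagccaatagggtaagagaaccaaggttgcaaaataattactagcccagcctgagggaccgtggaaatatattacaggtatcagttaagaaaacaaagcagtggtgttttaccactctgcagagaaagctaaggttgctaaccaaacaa
KLHL24: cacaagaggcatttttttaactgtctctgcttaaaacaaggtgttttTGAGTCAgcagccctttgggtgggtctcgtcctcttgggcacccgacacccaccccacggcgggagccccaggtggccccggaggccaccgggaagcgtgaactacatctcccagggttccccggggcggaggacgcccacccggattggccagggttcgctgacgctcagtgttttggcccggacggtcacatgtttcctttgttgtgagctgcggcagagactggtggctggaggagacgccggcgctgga

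In EGR1 the first CArG box starts 105 bases before the gene's start and the second 83 bases before it. In SRF they start 30 and 10 bases before it. The AP-1 site of CXCL8 starts 137 bases before the start, that of ITGA5 6, that of VAV3 116 and that of KLHL24 203. An AP-1 site thus stood in promoters of genes that HRG moved in opposite directions.

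Secreted cytokines and regulators of NF-κB made up the list with the largest median among those with at least 5 tested genes. The called receptor gene IL1RL1, described above, was also placed in it and had its highest fold change. Of 21 genes, 10 were tested, all 10 had positive fold changes and 7 were called, 8 without the EGF array, with a median of 2.10, or 1.68 with undetected genes at their bounds. LIF, CCL20, TNFAIP3 and IL1RL1 were undetected in starved cells and entered the test through the HRG arrays alone. Their direction was set by that rule and adds nothing to the count of positive signs. Over all genes tested, 2.09% were called higher, or 5.89% without the EGF array. CCL2, a monocyte chemoattractant, measured 11.43 and 10.68 with HRG against 8.31 and 7.08 in starved cells (3.36 ± 0.56, adjusted p = 0.00513). TNF measured 8.79 and 8.41 against 6.01 and 5.95 (2.62 ± 0.26, adjusted p = 0.000102). LIF, a cytokine of the interleukin-6 family, measured 7.80 and 7.91 against 5.32 and 5.05 and was at least 4.22-fold higher. The starved levels of TNF and LIF were close to or under the detection limit, while both HRG arrays were far above it. CCL20, a chemokine, was at least 2.77-fold higher, and TNFAIP3, a ubiquitin-editing inhibitor of NF-κB, at least 3.23-fold. CXCL8, interleukin-8, had 7.83 and 7.56 against 5.93 and 6.13 (1.66 ± 0.37, adjusted p = 0.0243), and its other detected probe gave a larger difference of 3.44. The inhibitor genes NFKBIA (0.42) and NFKBIE (0.75) and the subunit gene RELB (0.84) were not called. Without HRG replicate 1 the calls of CCL2, TNFAIP3 and CXCL8 ended (0.0869 to 0.201), without starved replicate 1 those of TNFAIP3 and CXCL8 (0.122 and 0.169), without starved replicate 2 those of CCL2 and CXCL8 (0.0705 and 0.107), and without HRG replicate 2 that of CXCL8 (0.08). Of the leukocyte markers, PTPRC, CD3E and TYROBP were not detected on any of the 4 arrays, CD14 was detected on 2 and LYZ on 1. The source of the cytokine transcripts was not tested.

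**Figure D2:**
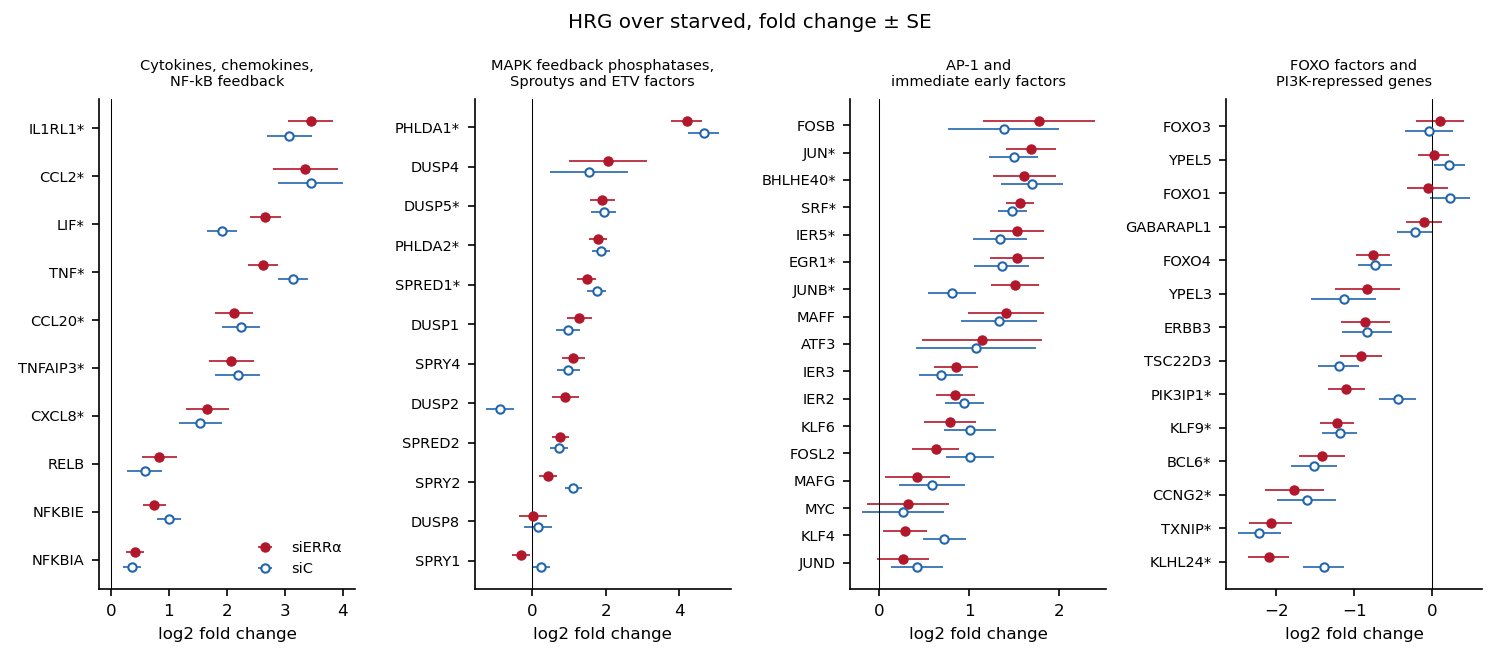
Log2 fold change of HRG over starved (horizontal axes, ± SE) for tested members of the cytokine, MAPK feedback, immediate early and FOXO lists. Filled red points are siERRα cells and open blue points siC cells, and asterisks mark genes called in siERRα cells. All members of the cytokine and immediate early lists lie to the right of 0 in siERRα cells, and most FOXO and PI3K-repressed genes lie to the left.

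Several genes known to be repressed by PI3K signalling or driven by FOXO factors fell. Of 23 listed, 14 were tested, 6 were called lower and none higher, 9 lower without the EGF array, and the median was -0.89. Over all genes tested, 1.15% were called lower, or 4.26% without the EGF array. TXNIP, which binds thioredoxin and restrains glucose uptake, fell to 8.80 and 8.22 with HRG, against 10.65 and 10.51 in starved cells (-2.07 ± 0.28, adjusted p = 0.00106). KLHL24, an adaptor of a ubiquitin ligase, measured 5.73 and 5.48 against 7.91 and 7.49 (-2.10 ± 0.26, adjusted p = 0.000658), and CCNG2, an atypical cyclin of resting cells, 6.23 and 6.15 against 8.18 and 7.75 (-1.77 ± 0.38, adjusted p = 0.0205). The HRG arrays lay below the starved arrays throughout. BCL6, a transcriptional repressor (-1.42), KLF9, a Krüppel-like factor (-1.22), and PIK3IP1, an inhibitor of PI3K (-1.10), were the other called members. The calls of TXNIP and KLHL24 held without any one of the 4 arrays, and each of the other 4 ended without at least 3 of them, at adjusted p-values of 0.0548 to 0.174. Transcripts of the FOXO factors themselves showed log2 fold changes of 0.10 for FOXO3 and -0.05 for FOXO1, and FOXO4 was at least 1.17-fold lower, none of them called.

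ID2, an inhibitor of helix-loop-helix transcription factors, had the largest fall, at 6.72 and 6.33 with HRG against 8.94 and 9.27 in starved cells (-2.58 ± 0.33, adjusted p = 0.000686). Its relatives moved the other way. ID1 rose to 8.34 and 7.99, against 6.67 and 6.67 (1.49 ± 0.23, adjusted p = 0.00246), and ID3 to 12.78 and 12.50, against 11.68 and 11.84 (0.88 ± 0.16, adjusted p = 0.00725). SMAD6, a feedback inhibitor of BMP signalling, measured 7.36 and 6.99 against 8.34 and 8.28 (-1.13 ± 0.25, adjusted p = 0.0233). In the list of 13 ID and BMP feedback genes, 9 were tested, with 2 called in each direction, 3 in each without the EGF array. The calls of ID1 and ID2 held without any one array. That of ID3 ended without HRG replicate 1 (0.12) or starved replicate 1 (0.084), and that of SMAD6 without any one of the 4 (0.0828 to 0.159).

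VAV3, a guanine nucleotide exchange factor, fell to 6.25 and 5.22 with HRG, against 8.18 and 7.97 in starved cells (-2.34 ± 0.30, adjusted p = 0.000686). SLC40A1, the cellular iron exporter ferroportin, measured 6.84 and 6.48 against 9.03 and 8.41 (-2.06 ± 0.32, adjusted p = 0.00308) and was the only called gene of 7 tested in the iron list. MXD3, a partner of MAX that opposes MYC, measured 4.86 and 5.31 against 7.02 and 7.35 and was at least 2.77-fold lower. It was the only called gene of 7 tested in the list of MYC and MXD antagonists (median -0.32), with 2 lower without the EGF array. OVOL2, a zinc-finger factor of epithelial cells, measured 7.99 and 8.98 against 10.31 and 10.23 (-1.79 ± 0.40, adjusted p = 0.0269). The HRG values of VAV3 and OVOL2 were more widely spaced than their starved values. No groups overlapped, as in 55.1% of all genes tested. THRSP, a regulator of fatty acid synthesis, fell by 1.79 on the log2 scale, PEX11A, which divides peroxisomes, by 1.69, RHOU, an atypical small GTPase, by 1.43, and C9orf152 by 1.56. Without background correction the fitted log2 fold change was -1.73 for ID2, -1.23 for VAV3 and -0.71 for NNAT. ANKRA2 was at least 2.00-fold lower, NNAT, neuronatin, at least 1.98-fold and HEXIM2, an inhibitor of the elongation factor P-TEFb, at least 1.66-fold. Without HRG replicate 1 the calls of MXD3, NNAT, OVOL2 and C9orf152 ended (0.0642 to 0.304). The same happened without starved replicate 2 for MXD3, NNAT, OVOL2 and HEXIM2 (0.0506 to 0.133), without starved replicate 1 for OVOL2 and HEXIM2 (0.164 and 0.176) and without HRG replicate 2 for HEXIM2 (0.191).

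CDKN1A, which encodes the cyclin-dependent kinase inhibitor p21, had the smallest adjusted p of all genes. It measured 12.08 and 12.19 with HRG against 9.70 and 9.82 in starved cells (2.37 ± 0.17, adjusted p = 1.81e-05). Its replicates differed by far less than the groups did. CDKN1A was the only called gene among 9 tested D cyclins, their kinases and inhibitors, and CCND1 had a log2 fold change of 0.40.

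Several genes of cell adhesion rose. Of 29 integrins, laminins and focal adhesion genes, 18 were tested, 8 were called higher and none lower, 11 higher without the EGF array, and the median was 0.94. Over all genes tested, 2.09% were called higher, or 5.89% without the EGF array. THBS1, the matrix protein thrombospondin, measured 10.93 and 10.73 with HRG against 8.23 and 7.53 in starved cells (2.94 ± 0.52, adjusted p = 0.00662). The collagen receptor subunit ITGA2 measured 8.91 and 8.03 against 6.14 and 5.47 (2.66 ± 0.48, adjusted p = 0.00785), and ITGA5, a fibronectin receptor subunit, 7.97 and 7.95 against 5.85 and 6.13 (1.97 ± 0.32, adjusted p = 0.00423). PLAU, the protease urokinase, measured 8.25 and 8.36 against 6.68 and 5.77 (2.07 ± 0.28, adjusted p = 0.00112). The HRG arrays were higher for all 4, and the starved replicates of PLAU spread the widest. ITGA3 (1.33), the focal adhesion components ZYX (1.09) and VCL (1.00), which link integrins to actin, and TLN1, talin (0.86), were the others. Second probes of ZYX and VCL gave larger log2 fold changes of 1.77 and 1.90. PLAU kept its call without any one array. ITGA3 lost it without any one (0.0785 to 0.365), and the other 6 without at least 2 of the 4 arrays, HRG replicate 1 among them for each (0.05 to 0.292).

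The textbook targets of ERRα, in contrast, showed small differences. Of 49 listed genes, 38 were tested and none was called in either direction, with or without the EGF array, while the median was -0.08 and the range -0.41 to 0.59. Among them, TFF1 had the highest value. For complex I of the respiratory chain, 32 of 37 subunits were tested, all 32 had negative fold changes with a median of -0.13, and none was called, although NDUFA6 (-0.65) was called without the EGF array. The subunits share a scale and samples, so their signs are not independent. Complexes II to V (37 tested, median -0.11), the TCA cycle and pyruvate metabolism (29, -0.07) and the mitochondrial ribosome (67, -0.13) had no called member. In siC cells the medians were -0.16 for complex I, -0.08 for complexes II to V, -0.14 for the TCA list and -0.09 for the mitochondrial ribosome. No member of these lists was called there with all 20 arrays. Of 34 genes of fatty acid and branched-chain amino acid breakdown, 31 had negative fold changes and ECI2, an enoyl-CoA isomerase, was called, with 2 lower without the EGF array, at 9.69 and 9.82 with HRG against 10.40 and 10.63 in starved cells (-0.76 ± 0.17, adjusted p = 0.0236). The call of ECI2 ended without any one of the 4 arrays (0.0724 to 0.203).

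In glycolysis, 2 of 20 tested genes were called higher, 3 without the EGF array. They were PFKFB3, which makes the activator of phosphofructokinase, at 10.95 and 11.13 with HRG against 9.94 and 9.63 in starved cells (1.26 ± 0.26, adjusted p = 0.0184), and PFKP, a phosphofructokinase, at 10.96 and 10.94 against 9.76 and 10.22 (0.96 ± 0.19, adjusted p = 0.0159). The list had a median of 0.07 and a range of -0.59 to 1.26, with 11 positive and 9 negative fold changes. Of 29 tested genes of glutathione and peroxide metabolism only SRXN1, sulfiredoxin, was called (0.78 ± 0.17, adjusted p = 0.0261), while 1 was lower as well without the EGF array. Among 18 hypoxia targets, ADM, the vasodilator peptide adrenomedullin, rose to 10.99 and 10.98, against 8.64 and 8.82 (2.25 ± 0.20, adjusted p = 0.000102), BHLHE40 rose, and ANKRD37 was at least 1.83-fold lower. These hypoxia genes moved in opposite directions and the list's median was 0.14, with 4 higher and 1 lower without the EGF array. The calls of PFKFB3, SRXN1 and ANKRD37 each ended without any one of the 4 arrays (0.0638 to 0.156) and that of PFKP without 3 of them (0.0788 to 0.171), whereas ADM kept its call.

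Cell-cycle genes lay slightly below 0. None of 42 tested G1/S and replication genes was called (median -0.25), 2 being lower without the EGF array. None of 50 tested mitotic genes was called either (median -0.34), 5 being lower without that array. Over all genes tested, the share called lower was 1.15% with that array and 4.26% without it. Negative fold changes numbered 35 among the G1/S genes and 46 among the mitotic genes. In homologous recombination and Fanconi repair, FANCE was called lower, at 7.07 and 7.77 with HRG against 8.74 and 8.87 in starved cells (-1.38 ± 0.26, adjusted p = 0.0097), among 16 tested, 3 being lower without the EGF array. Ribosome biogenesis genes had a median of 0.38, with 24 of 28 positive and NOLC1, a nucleolar chaperone, called (0.73 ± 0.17, adjusted p = 0.0291), 4 being higher without that array. The calls of FANCE and NOLC1 ended without 3 and 4 of the arrays (0.0578 to 0.256). S100A3 was the only called gene among 11 S100 calcium-binding proteins, at 9.98 and 9.67 against 7.53 and 7.64 (2.24 ± 0.20, adjusted p = 0.000102). CLDN1 was called among 8 tight-junction genes and OVOL2 among 19 luminal identity genes, and without the EGF array 2 tight-junction genes were higher, and 2 luminal genes higher and 3 lower. No gene was called among 25 of cholesterol and fatty acid synthesis, 23 of the ATF4 response, 22 chaperones, 14 interferon-stimulated genes and 9 of the BCL2 family, of which 2, 1, 2, 2 and 0 were called without the EGF array.

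**Figure D3:**
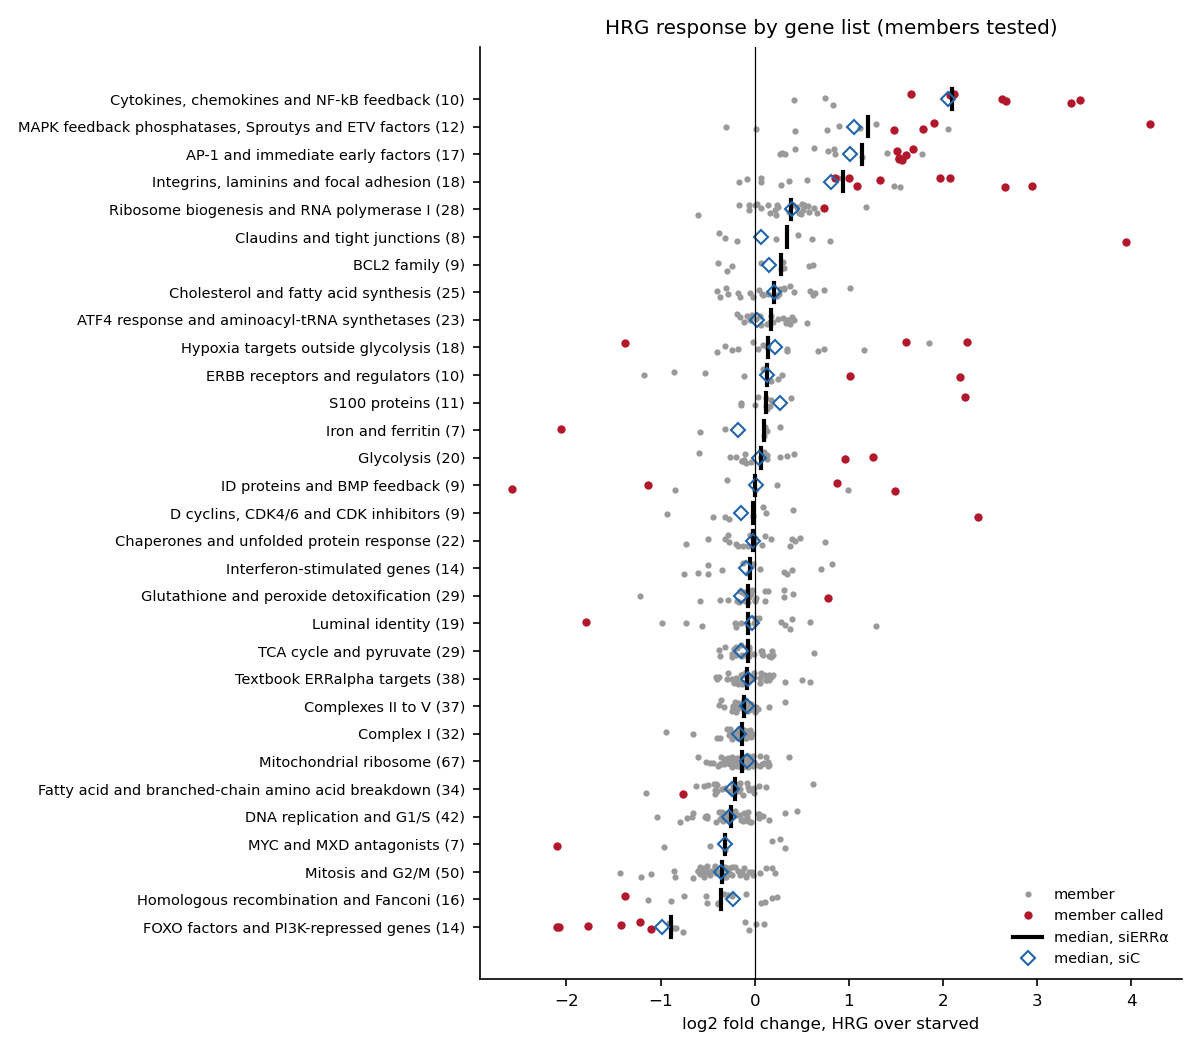
Log2 fold change of HRG over starved in siERRα cells (horizontal axis) for each tested member of the gene lists reported here with at least 5 tested genes. Red points are called genes, black bars the medians in siERRα cells and open blue diamonds the medians in siC cells. The cytokine, MAPK feedback and immediate early lists stand highest, with medians of 2.10, 1.20 and 1.14, the FOXO list lowest at -0.89, and the textbook ERRα targets near 0.

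Whether ERRα depletion altered the response to HRG was examined by setting these 4 arrays against the 4 of siC cells, which share no array with them. In siC cells HRG changed 282 of the same 8597 genes (3.28%). The detection rule used the siERRα arrays alone, whereas the siC arrays by themselves would have given 8355 genes. Genes detected only in siC cells could not enter, so the shares and counts below leave them out. The 2 responses shared 178 called genes, 63.8% of those called in siERRα cells and 63.1% of those called in siC cells, and no gene was called in opposite directions. Across all genes the fold changes correlated at r = 0.740 (Spearman 0.634), as a description over genes that are not independent, and 74.1% had the same sign. Of the 279 genes called in siERRα cells, 272 had the same sign in siC cells, and all 282 called in siC cells had the same sign in siERRα cells. The genes called higher in siERRα cells had a median fold change of 1.26 there and 1.18 in siC cells, and those called higher in siC cells had 1.13 in siERRα cells and 1.31 in siC cells. Likewise, genes called lower in siERRα cells had -1.13 there and -0.87 in siC cells, and those called lower in siC cells -0.95 in siERRα cells and -1.12 in siC cells. Each choice of genes favoured the arm in which they were chosen.

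**Figure D4:**
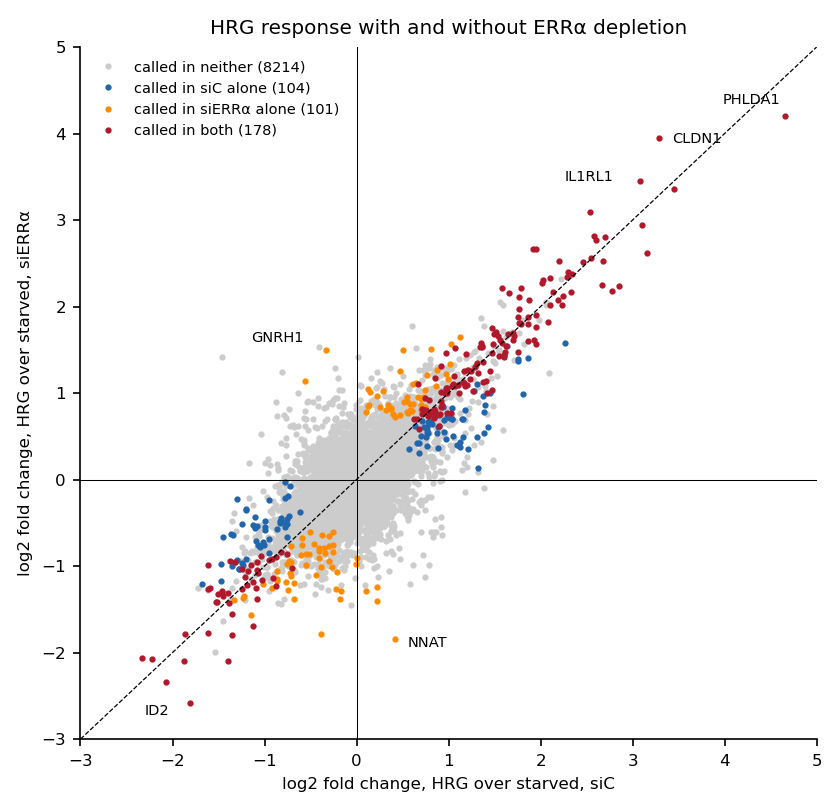
Log2 fold change of HRG over starved for 8597 genes in siERRα cells (vertical axis) and in siC cells (horizontal axis), with the line of equal response dashed. Red points are the 178 genes called in both, orange the 101 called in siERRα cells alone, blue the 104 called in siC cells alone and grey the 8214 called in neither. Called genes lie along the line, and few, such as NNAT and GNRH1, lie across an axis.

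The difference of the 2 responses itself was called for no gene (0% of 8597, smallest adjusted p = 0.9999), with 160 genes at an unadjusted p under 0.05. Without the EGF array 2 genes were called (0.0233%) and 408 had an unadjusted p under 0.05. Where nothing differs, a share of 0.05 of genes is expected to pass that limit, and neither count exceeded that share of the 8597. Calls in 1 arm alone therefore do not show a difference between arms. For the leading genes of the pathway, too, no difference passed. The difference of log2 fold changes, siERRα minus siC, was 0.03 for CDKN1A, 0.08 for SRF, -0.59 for ERRFI1 and -0.53 for TNF, with unadjusted limma p-values from 0.161 to 0.892. CBL had fold changes of 1.01 in siERRα and 0.15 in siC cells (unadjusted p of the difference 0.0184), ID1 1.49 and 0.51 (0.00823), and TLN1 0.86 and 0.14 (0.021). CBL, ID1 and TLN1 were among those 160 genes, and none of these differences passed adjustment.

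The genes with the smallest p for a difference were dim, with most values near or under the detection limit. Those named here passed the detection rule through a single siERRα group, the one in which they were higher. HEXA-AS1, an antisense RNA of the hexosaminidase gene HEXA, measured 5.88 and 6.77 in HRG-treated and 4.92 and 4.89 in starved siERRα cells, against 5.14 and 4.50 in HRG-treated and 5.90 and 6.66 in starved siC cells. It was not detected on either starved siERRα array or either HRG siC array, so that only bounds apply, at least 1.46-fold higher with HRG in siERRα cells and at least 1.36-fold lower with HRG in siC cells (fitted difference, unadjusted p = 0.000253, adjusted p = 0.9999). NNAT measured 4.68 and 5.04 with HRG and 6.49 and 6.91 in starved siERRα cells, against 6.19 and 5.31 with HRG and 5.74 and 4.93 in starved siC cells (fitted difference, unadjusted p = 0.000358). NNAT was below detection on both HRG arrays of siERRα cells and on 1 array of each siC group. The other genes in the direction of HEXA-AS1 were DMTN, a protein that bundles actin in red cells, the phosphodiesterase PDE8A and ISM1, isthmin, and in the direction of NNAT the phospholipase PLCB1, LOC646938 and the glycosyltransferase EXTL2. Each of these 6 was undetected on at least 1 of the 8 arrays, and the size of their differences is not given. Among these, EXTL2 had close replicates, at 5.59 and 5.61 with HRG and 6.48 and 6.86 in starved siERRα cells, against 5.63 and 5.73 with HRG and 5.91 and 5.87 in starved siC cells.

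**Figure D5:**
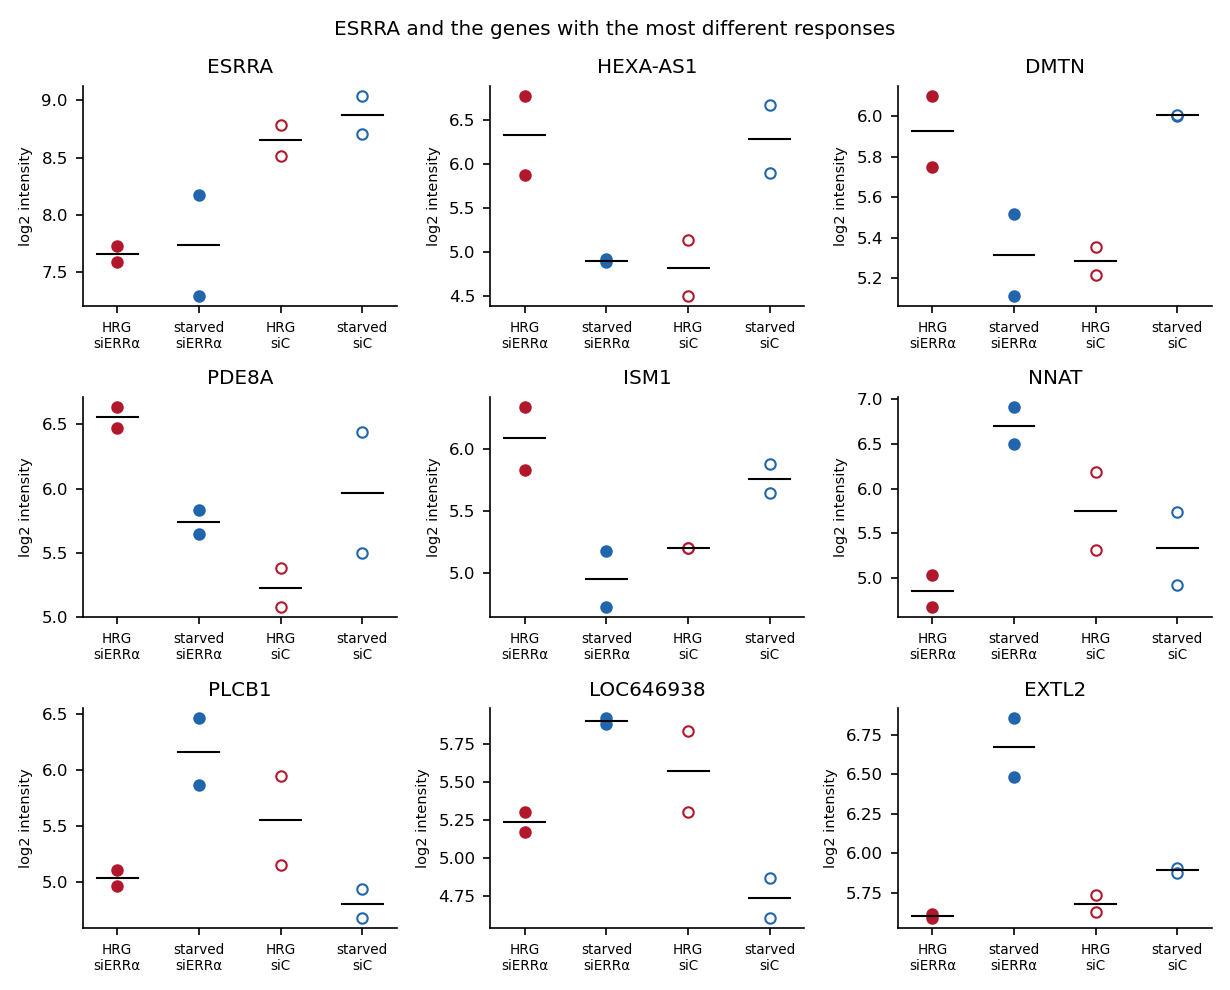
Log2 normalized intensity (vertical axes) of ESRRA and of the 4 genes with the smallest p in each direction for a difference between the HRG responses. Points are single arrays of HRG siERRα, starved siERRα, HRG siC and starved siC cells from left to right, and bars are group means. ESRRA separates by siRNA, with 7.29 to 8.18 in siERRα cells and 8.52 to 9.04 in siC cells, and the other genes are dim, with every value under 7.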

How the data were processed

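SKBr3 RNA was hybridized to Illumina HumanHT-12 v4 arrays. The authors deposited a raw table of bead intensity for 47323 probes on 20 arrays, on a linear scale without normalization, with a detection p-value for each. The authors also deposited a normalized table, read as log2 values (column medians 7.55 to 7.57), made with the lumi function of FlexArray per the study's methods. Its transform was not given in the sources used here, and it served only as an alternative. Intensities were background-corrected with normexp on the detection p-values (nec, offset 16), quantile-normalized and log2-transformed in limma 3.58.1 (R 4.3.3). Of the probes, 30113 had 1 gene symbol, 8 several and 17202 none, and 30074 matched RefSeq. A gene was read from its brightest detected probe, and 1921 genes had more than 1. Fold changes include the offset, which understates the changes of dim genes.

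All 20 arrays were fitted together in limma as 10 groups, with empirical Bayes moderation (10 residual degrees of freedom), from which the HRG response in siERRα cells, that in siC cells and their difference were taken. The two-sided p-values were adjusted by Benjamini-Hochberg over 8597 genes, with calls made at an adjusted p under 0.05. A gene with no detected probe in 1 group has only a bound (at least N-fold). Its dim side was set, on each array, to the lowest detected signal or to the probe's value where that was higher. The number of arrays limits the precision. Named genes are the 15 largest called rises and falls, the 4 smallest p-values in each direction of the difference, called members of 33 gene lists (1 of which is not reported here), and ligands, receptors and ESRRA. The members and lists were chosen with earlier results of these data known. No chip or slide was given in the sources used here, and no columns of samples were left unmapped. Probes without a symbol (2458 tested, 20 called) are not named.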

Additional observations from a re-analysis of the deposited data

Results flagged for a closer look

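HEXA-AS1 and GNRH1 differed between siERRα and siC cells in the response to HRG by a test of the difference itself, over the 19 arrays left without EGF siERRα replicate 1. The fitted difference of log2 fold changes, siERRα minus siC, was 2.88 for HEXA-AS1 and 1.83 for GNRH1, each with an adjusted limma p of 0.0404. With all 20 arrays neither passed (adjusted p = 0.9999). These sizes were formed against values not above background and are no measured folds. Both genes passed the detection rule only through the HRG-treated siERRα arrays, on which they were high. Genes high in siC cells alone could not enter, so these 2 calls do not support a difference between the arms. HEXA-AS1 was undetected on both starved siERRα and both HRG-treated siC arrays, which leaves at least 1.46-fold higher with HRG in siERRα cells and at least 1.36-fold lower in siC cells. GNRH1 was at least 1.59-fold higher in siERRα cells and has no fold in siC cells. GNRH1, the precursor gene of gonadotropin-releasing hormone, measured 6.28 and 6.61 in HRG-treated and 4.81 and 5.10 in starved siERRα cells, against 4.98 and 4.89 in HRG-treated and 5.28 and 5.25 in starved siC cells. It was detected only on the 2 arrays of HRG-treated siERRα cells among these 8. Its HRG response in siERRα cells was called with 20 arrays (adjusted p = 0.0216) and ended without any one of the 4 arrays (0.0835 to 0.169).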

How the results depend on the processing

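The counts of called genes depended mostly on how the spread was estimated. Against 279 calls (180 higher, 99 lower), 19 arrays gave 872 (506 and 366) and array quality weights 916 (521 and 395). The 12 arrays of the growth factor experiment, which include EGF siERRα replicate 1, gave 89 (68 and 21). Median scaling in place of quantile normalization gave 180 (112 higher). The methods' t-test on the same values gave 1230 genes at an unadjusted p under 0.05 (612 higher, 618 lower) and 0 after Benjamini-Hochberg adjustment (0 higher, 0 lower). Leaving out each replicate in turn gave 75 to 139 calls, 54 to 89 higher and 21 to 50 lower. For the difference between the responses, 0 calls became 2 with 19 arrays and 1 with array weights, and the t-test gave 343 at an unadjusted p under 0.05. Similar counts did not mean the same genes. The compared groups alone gave 211 calls, of which only 142 were among the 279. The authors' normalized values gave 280 calls, with 217 among the 279. No background correction, offset 50, no detection filter, genes detected in any group and the mean of probes gave 225 to 289 calls. In each of these, 216 to 262 calls were among the 279. Replicate numbers were not treated as pairs, since the rule asked every pair of groups to pass a correlation of 0.1. The replicate differences of 45 pairs of groups correlated at -0.0894 to 0.357. Of these, 23 passed 0.1, the pair of HRG and starved siERRα cells (0.178) among them. A replicate block gave 375 calls (232 higher, 143 lower), 278 of them shared. Of the 279 genes, 278 kept their sign in every alternative, and 58 were called in all 16 alternatives other than the t-test, which called none after adjustment. The median sign of 6 of 33 lists (ID and BMP, glycolysis, chaperones, iron, D cyclins, interferon) changed in at least 1 alternative. Genes undetected throughout a group carry only bounds, and 2 arrays a group limit every call.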

Other observations

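Further called genes, chosen after their values were seen and not tested as a group, included genes of actin and adhesion that were higher. MYH9, non-muscle myosin, measured 13.17 and 12.79 in HRG-treated against 11.57 and 11.46 in starved siERRα cells (log2 fold change 1.46, adjusted p = 0.0016). FHL2, a LIM-domain cofactor (2.01), CCN2, a matricellular growth factor (1.88), PALLD, an actin crosslinker (1.71), and FERMT2, kindlin-2 (1.25), were also called. Of these genes, MYH9 kept its call without any one of the 4 arrays, and each of the other 4 lost it without HRG replicate 1 or starved replicate 2, at adjusted p-values of 0.068 to 0.13.

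Of the MIS12 complex, which anchors kinetochores to centromeres, 3 genes were called lower, against 1.15% of all genes tested, the complex having been picked for these calls. DSN1 measured 6.74 and 6.98 in HRG-treated against 8.33 and 7.91 in starved siERRα cells (-1.25, adjusted p = 0.0137), MIS12 had -1.08 (adjusted p = 0.00981), and NSL1 measured 8.53 and 8.98 against 9.77 and 9.61 (-0.94, adjusted p = 0.0196). The remaining member, PMF1, had -0.62 (adjusted p = 0.287). Each of the 3 calls ended without HRG replicate 1 (0.12 to 0.241) or starved replicate 1 (0.122 to 0.163), that of NSL1 also without starved replicate 2 (0.0824). In siC cells the fold changes were -0.92, -1.08, -0.74 and -0.21 for DSN1, MIS12, NSL1 and PMF1. Among receptors and ligands outside the lists, EPHA2, an ephrin receptor, was at least 3.64-fold higher. PDGFB, a platelet-derived growth factor chain, measured 9.78 and 9.40 against 7.26 and 7.60 (2.17, with the call lost without starved replicate 1 at 0.05 or HRG replicate 1 at 0.0658), and CX3CL1, a membrane-bound chemokine, 11.48 and 11.53 against 9.10 and 9.58 (2.17).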
